A study of Mus musculus with 32 samples.

Results

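The genes described here are 6 genes of the alveolar type 2 (AT2) cell that make or serve its lamellar bodies, Napsa, Ctsh, Lamp3, Slc34a2, Lrrk2 and Abca3. They were chosen by function, from a list of names and not by measured values, though earlier results of these data were known by then. All 6 were among the 11818 genes of the count table. All but Abca3 also stand in the AT2 signature that the study used. All 6 passed the filter on low counts in every fit, with lowest counts in any library between 144 for Napsa and 422 for Slc34a2.

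AT2 cells make pulmonary surfactant and store it in lamellar bodies, lysosome-related organelles that hold tightly packed phospholipid and release it at the apical surface. Surfactant proteins B and C are made as precursors and cut by proteases on the way to these organelles, and phospholipid is pumped into them across their limiting membrane. Napsa (napsin A, an aspartic protease) and Ctsh (cathepsin H, a cysteine protease) take part in the processing of pro-surfactant protein B. Lamp3 is a lysosome-associated membrane glycoprotein of the lamellar body, and Abca3 is the lipid transporter of its membrane. Slc34a2 is a sodium-phosphate cotransporter that recovers phosphate freed from surfactant phospholipid, and Lrrk2 is a large kinase that acts on Rab proteins of lysosomes and related organelles.

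The libraries came from lung organoid cultures in which primary Epcam+ lung cells of naive C57BL/6 J mice, 8 to 14 weeks old, grew together with the mouse lung fibroblast line CCL206, which mitomycin C kept from dividing. Cultures of 4 mice received vehicle, extracellular vesicles (EVs) or soluble factors (SFs) of the human fetal lung fibroblast line MRC5, or 10 ug/ml of recombinant human osteoglycin (OGN) for 72 h. Each culture was then dissociated and separated with Epcam microbeads into an Epcam+ and a CCL206 fraction, which gave 8 groups of 4 libraries, 1 per mouse. The fibroblasts were 1 line in every culture, so the CCL206 libraries of different mice differ by the epithelial partner and the culture and not by the fibroblast donor. The count table held only genes with a count in every library.

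The 32 libraries held between 1805914 and 17675454 counts, with a median of 5901652, and the medians of both fractions were alike (5658547.5 in Epcam+ and 6529202 in CCL206 libraries). Those of the groups were not. EV-treated CCL206 libraries had the lowest median, 3887814.5, against 9579315.5 with vehicle and 10547571.5 with OGN. In Epcam+ libraries the median was 10111302 with EVs and 4196271.5 with vehicle. The fractions went with their labels, since 8 of 8 epithelial markers were higher in Epcam+ libraries of vehicle cultures (median log2 difference 4.27) and 8 of 9 fibroblast markers were higher in CCL206 libraries. The separation was not complete. Epcam itself had 11.5 ± 3.41 CPM (counts scaled to a common library total) in CCL206 libraries of vehicle cultures against 289 ± 26.7 CPM in Epcam+ libraries (mean ± SD, n = 4). Of 14 macrophage and dendritic cell markers 12, Ptprc among them, were not in the table. Since the table held only genes with a count in every library, this does not show that such cells were absent. The 2 in the table, Cd14 and Cd68, summed to 244 to 284 CPM in Epcam+ libraries with vehicle and 385 to 534 CPM with OGN. The part of such cells in the levels of the 6 genes was not tested. The EV-treated CCL206 libraries of mice 2 and 4 stood apart, with log2 levels relative to the vehicle mean that fell with transcript length across genes (Spearman rho -0.588 and -0.627, against -0.289 and -0.369 in mice 1 and 3), and values for EVs in this fraction are given with and without them.

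The promoters in the RefSeq table (GRCm38.p6) are shown for the 4 genes it held. Each runs from 250 bases before to 50 bases after a start site. Slc34a2 and Abca3 had the highest Pearson r of the 6 genes over the Epcam+ libraries, at 0.90 with each mouse centred on its mean. For Abca3 and Lrrk2 the start site used lies downstream of the first base of the gene in RefSeq (24351921 and 91672791). Positions in both windows count from the start site used. Capitals mark matches on either strand to a TATA box (TATAAA or TATATA), the C/EBP motif TTNNGNAA and a GC box (GGGCGG). The E-box CACGTG and the NKX2-1 core CTCAAG were searched as well and had no match in these windows.
Slc34a2, chr5:53049103-53049402, + strand: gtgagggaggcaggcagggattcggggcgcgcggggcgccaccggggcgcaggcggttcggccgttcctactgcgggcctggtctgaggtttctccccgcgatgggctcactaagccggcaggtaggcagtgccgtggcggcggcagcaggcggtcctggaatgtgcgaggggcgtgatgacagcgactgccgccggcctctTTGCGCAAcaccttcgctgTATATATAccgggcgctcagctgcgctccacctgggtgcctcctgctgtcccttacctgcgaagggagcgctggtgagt
Abca3, chr17:24351773-24352072, + strand: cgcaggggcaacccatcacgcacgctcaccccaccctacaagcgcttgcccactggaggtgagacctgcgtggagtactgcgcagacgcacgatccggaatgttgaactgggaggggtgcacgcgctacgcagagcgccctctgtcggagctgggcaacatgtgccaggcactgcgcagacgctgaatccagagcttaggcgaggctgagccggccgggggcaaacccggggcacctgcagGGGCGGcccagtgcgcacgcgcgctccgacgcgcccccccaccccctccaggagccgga
Lamp3, chr16:19706316-19706615, - strand: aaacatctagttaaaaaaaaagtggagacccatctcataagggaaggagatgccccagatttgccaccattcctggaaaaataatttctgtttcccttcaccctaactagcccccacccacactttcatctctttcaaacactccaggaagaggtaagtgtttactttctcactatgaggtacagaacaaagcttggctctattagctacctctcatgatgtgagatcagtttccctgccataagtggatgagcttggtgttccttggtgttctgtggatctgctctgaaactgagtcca
Lrrk2, chr15:91672974-91673273, + strand: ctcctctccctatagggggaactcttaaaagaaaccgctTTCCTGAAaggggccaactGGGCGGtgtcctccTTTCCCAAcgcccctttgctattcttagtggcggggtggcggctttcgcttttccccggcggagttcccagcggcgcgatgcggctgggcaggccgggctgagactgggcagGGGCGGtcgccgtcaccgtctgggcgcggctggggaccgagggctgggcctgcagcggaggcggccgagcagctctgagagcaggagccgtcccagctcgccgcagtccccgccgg

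In the Slc34a2 promoter 2 overlapping TATATA matches began at -29 and -27, with position 1 as the first transcribed base, and a C/EBP match (TTGCGCAA) began at -48. The Abca3 window had neither, and held 1 GC box at -9. The Lrrk2 window held GC boxes at -192 and -66 and C/EBP matches at -211 and -178, and the Lamp3 window held no match to any motif searched. The Lamp3 window was also the only one of low GC content (43.7%), against 68.7%, 69.7% and 68.7% in Slc34a2, Abca3 and Lrrk2. Such matches are common, since of all 32851 promoters of this length searched, 17.1% held a TATA match, 40.7% a C/EBP match, 35.7% a GC box, 7.15% the E-box and 15.9% the NKX2-1 core. Slc34a2 and Abca3, which moved together, shared none of the motifs searched. Napsa lies on chr7:44572445-44586846 and Ctsh on chr9:90054267-90076095 of the same build.

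In Epcam+ cells with vehicle the protease gene Ctsh had the highest level per transcript length of the 6 genes, 315 CPM per kb, followed by Slc34a2 with 224 CPM per kb. Napsa (88.8 CPM per kb), Lamp3 (83.5 CPM per kb) and Abca3 (73.4 CPM per kb) lay close together, and Lrrk2 was lowest with 14.2 CPM per kb. In CPM, which is not set per length, these genes were among the more abundant of the table. Slc34a2 had a higher mean CPM over the Epcam+ libraries than 99.1% of the genes, and Lrrk2, the least abundant of the 6, still exceeded 85.9%.

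The first comparison asked how far these genes separate the epithelial from the fibroblast fraction of the same cultures. With vehicle, 5 of 6 were higher in Epcam+ than in CCL206 libraries, by between 2.34-fold for Abca3 and 5.53-fold for Ctsh, and Lrrk2 did not pass the test. Of all 11805 genes tested, 69.6% differed between the fractions at an adjusted p under 0.05 and 35.3% were higher in Epcam+ cells. P values are from edgeR's quasi-likelihood test with mouse in the model, adjusted by Benjamini-Hochberg over all genes tested.

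Ctsh, the cathepsin of surfactant protein B processing, had 554, 482, 448 and 585 CPM in the vehicle Epcam+ libraries of mice 1 to 4. In the CCL206 libraries of the same cultures it had 143, 89.9, 92.8 and 57.9 CPM. The ranges were far apart in every mouse, and the log2 difference was 2.47 (SE 0.21, adjusted p = 8.66e-12). Other cathepsins did not share this pattern, as Ctsb (-1.53), Ctsl (-1.60), Ctsa (-1.51) and Ctsd (-0.94) were lower in Epcam+ cells on the log2 scale and only Ctsc (1.90) and Ctsk (1.13) were higher, while Ctsz (-0.14, adjusted p = 0.183) was not called. These 7 are the cathepsins of the lysosome list that were in the table, and Ctss was not in it.

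Slc34a2 had 1037, 846, 869 and 989 CPM in vehicle Epcam+ libraries and 393, 208, 244 and 142 CPM in CCL206 libraries. It was the most abundant of the 6 genes in both fractions in CPM. The log2 difference was 1.98 (SE 0.18, adjusted p = 7.37e-11). Among other phosphate and sodium transporters, the phosphate carriers Slc20a1 (-0.37), Slc20a2 (-0.48) and Xpr1 (-0.78) were lower in Epcam+ cells, while the sodium pump subunit Atp1b1 (3.23) and the sodium channel subunit Scnn1a (2.33) were higher.

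Lamp3 had 333, 216, 272 and 299 CPM in vehicle Epcam+ libraries and 156, 88.9, 99.1 and 50.7 CPM in CCL206 libraries. Its log2 difference was 1.56 (SE 0.19, adjusted p = 1.71e-08). The ubiquitous lysosomal glycoproteins of the same family had the opposite direction, with log2 differences of -0.87 for Lamp1 (adjusted p = 3.57e-10) and -1.45 for Lamp2 (adjusted p = 5.55e-15).

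Abca3 had 535, 457, 449 and 467 CPM in vehicle Epcam+ libraries and 240, 192, 204 and 183 CPM in CCL206 libraries. Its log2 difference of 1.22 (SE 0.12, adjusted p = 2.08e-10) was the smallest of the 5 called, and its libraries were the least spread of these 5 genes in both fractions. None of the 6 other ABCA transporters tested was higher in Epcam+ cells. Of these, 5 were lower, among them the cholesterol exporter Abca1 (-1.74), and Abca7 was level (0.00, adjusted p = 0.984).

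Napsa had 166, 121, 115 and 155 CPM in vehicle Epcam+ libraries and 72.4, 43.2, 48.7 and 33.0 CPM in CCL206 libraries, a log2 difference of 1.52 (SE 0.19, adjusted p = 4.43e-08). The ranges of Napsa did not overlap. Lrrk2 was unlike the other 5. It had 136, 129, 111 and 127 CPM in vehicle Epcam+ libraries and 158, 135, 125 and 130 CPM in CCL206 libraries, and in each of the 4 cultures the CCL206 value was the higher. The log2 difference was -0.12 (SE 0.15, adjusted p = 0.474), with a 95% interval from -0.43 to 0.19, which leaves out a difference of the size seen for the other 5 genes. Genes that code for LRRK2's Rab substrates and partners went both ways, with 6 of 16 higher and 5 lower in Epcam+ cells, and Rab29 (3.28) was the one with the largest difference.

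**Figure D1:**
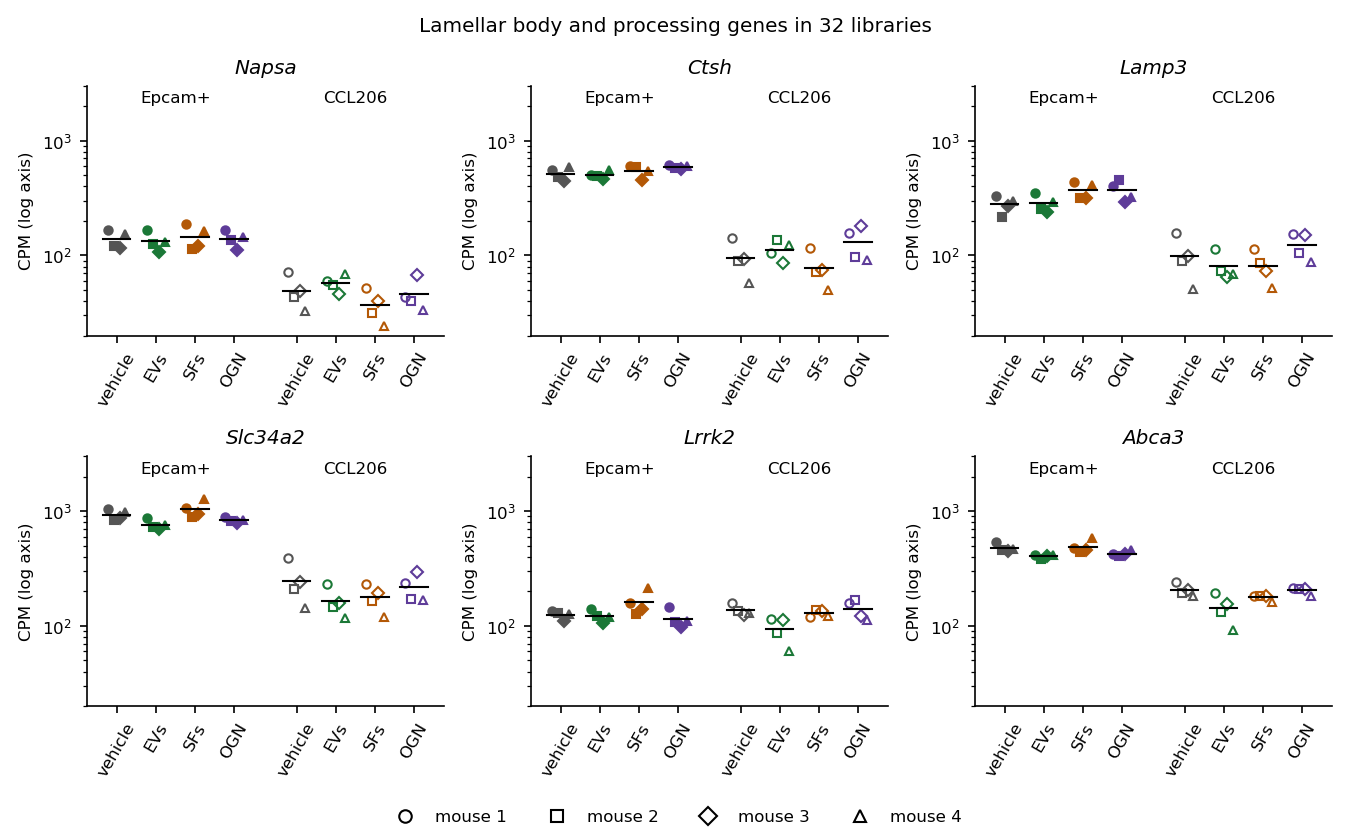
Level of each of the 6 genes in CPM (log axis) in all 32 libraries, with filled symbols for Epcam+ and open symbols for CCL206 libraries, 1 symbol shape per mouse and a bar at the mean of 4. Lrrk2 lies at 126 CPM in vehicle Epcam+ and 137 CPM in vehicle CCL206 libraries, whereas Ctsh lies at 517 and 95.9 CPM.

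The general lysosome moved against these genes. Of 25 lysosomal membrane and hydrolase genes tested, 20 were lower in Epcam+ than in CCL206 cells with vehicle and 2 were higher (median log2 difference -1.10, against 0.02 over all genes), and of 22 genes of lysosome-related organelle trafficking 14 were lower and 4 higher (median -0.45). The strongest exception in the trafficking list was Rab38 (2.88), a small GTPase of lysosome-related organelles. Surfactant lipid synthesis and transport genes went with the 5 lamellar body genes, with 15 of 20 higher and 3 lower (median 0.71). The other AT2 signature genes had larger differences, 5 of 5 higher with a median of 3.00, against a median of 1.54 for the 6 genes described here, and 18 of 18 AT2 genes beyond the signature were higher (median 2.27).

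The 6 genes remained at very unequal levels in the fibroblast fraction. With vehicle, the level in CCL206 libraries as a percentage of that in Epcam+ libraries of the same culture was 109% ± 6.43 for Lrrk2, 42.9% ± 2.86 for Abca3, 35.8% ± 10.2 for Napsa, 35.3% ± 13.0 for Lamp3, 26.3% ± 9.70 for Slc34a2 and 18.8% ± 6.65 for Ctsh (mean ± SD, n = 4). Of the 8 epithelial markers, 7 had mean shares between 3.81% for Krt19 and 10.3% for Cdh1, below all 6 genes. The other, the tight junction gene Cldn18, had 30.9% ± 12.0, above Slc34a2 and Ctsh. The surfactant protein genes Sftpb (11.8%), Sftpd (13.1%) and Sftpa1 (15.0%) were below all 6 as well, but Sftpc was not, with 392, 34.8, 36.6 and 14.6% in mice 1 to 4. In bulk libraries, a few epithelial cells in the fraction and a low level in its fibroblasts cannot be told apart.

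The genes also differed in how their level in the CCL206 fraction varied from culture to culture. In vehicle CCL206 libraries the summed epithelial markers were 640, 385, 400 and 251 CPM in mice 1 to 4, a 2.55-fold range. Slc34a2 (2.76-fold), Lamp3 (3.08-fold), Ctsh (2.47-fold) and Napsa (2.19-fold) had ranges of like size and the same order of mice, highest in mouse 1 and lowest in mouse 4. Abca3 and Lrrk2 varied far less, by 1.31-fold and 1.27-fold. Abca3 kept the same order of mice, whereas Lrrk2 was lowest in mouse 3. The part of epithelial RNA in the level of each gene was not tested.

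**Figure D2:**
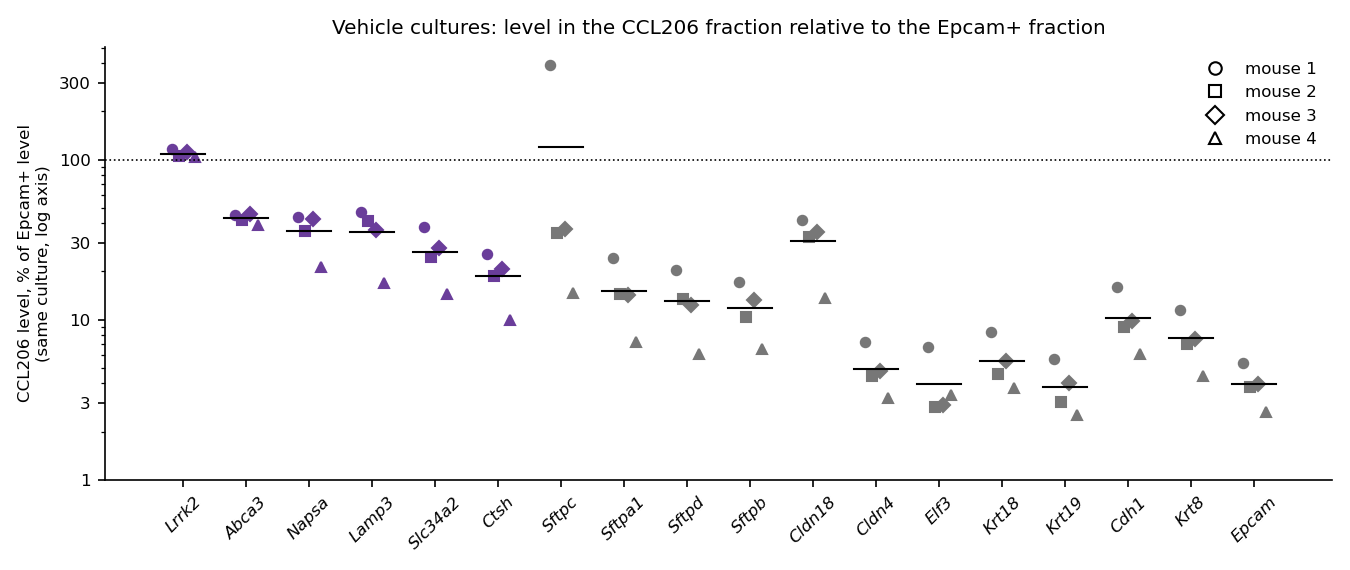
Level in the CCL206 fraction as a percentage of the level in the Epcam+ fraction of the same vehicle culture (log axis), for the 6 genes (purple) and, in grey, 4 surfactant protein genes and 8 epithelial markers, with 1 symbol per mouse, a bar at the mean and a dotted line at 100%. Lrrk2 lies at 103 to 116%, Ctsh at 9.89 to 25.8% and Epcam at 2.65 to 5.38%, while Sftpc (14.6 to 392%) and Cldn18 (13.7 to 41.7%) overlap with several of the 6 genes.

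The separation between fractions held in the treated cultures for the same 5 genes. With EVs all 6 genes were higher in Epcam+ cells (66.8% of all genes called, 32.6% higher), with SFs 5 of 6 (65.8% called, 33.1% higher) and with OGN 5 of 6 (70.6% called, 36.1% higher). Ctsh kept the largest difference with SFs and OGN, at 2.84 and 2.18 on the log2 scale, and with EVs Slc34a2 had 2.26 and Ctsh 2.16. Without the EV-treated CCL206 libraries of mice 2 and 4, which turned this order, Ctsh had 2.54 and Slc34a2 2.14, and all 5 genes kept their call with Napsa at 1.48, Lamp3 at 1.87 and Abca3 at 1.27. Lrrk2 had log2 differences of 0.38 with EVs (adjusted p = 0.0334), 0.33 with SFs (adjusted p = 0.0604) and -0.27 with OGN (adjusted p = 0.111), so its values had different signs. The value with SFs was called under 3 alternatives (0.33 to 0.45), with only the libraries compared, without the EV libraries and without mouse 2. The value with OGN was called in the opposite direction under 4 (-0.37 to -0.27), with only the libraries compared, without the EV libraries, without mouse 4 and with the length trend removed. The call with EVs was lost when mouse 1, 2 or 4 was left out (0.42, 0.34 and 0.22) and without the CCL206 libraries of mice 2 and 4 (0.08, adjusted p = 0.678), and with the trend on transcript length removed the value turned to -0.23 (adjusted p = 0.0765).

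The next comparisons asked whether EVs, SFs or OGN changed these genes in Epcam+ cells. With OGN, 0 of 6 genes passed the threshold in edgeR's test, in a comparison where 2.70% of 11716 genes did. An unadjusted p under 0.05 was reached by 4 of 6 and by 1540 of the 11716 genes, and DESeq2 called 1 of 6. Lamp3 was nearest, with 403, 452, 294 and 324 CPM in the OGN libraries of mice 1 to 4 against the 333, 216, 272 and 299 CPM with vehicle. It was higher in 4 of 4 mice, but the log2 difference in mouse 2 was 1.07 and in the others between 0.11 and 0.27, and the groups overlapped. The fitted change was 0.39 (SE 0.11, adjusted p = 0.0581). DESeq2 gave 0.40 with an adjusted p of 0.0202, and without mouse 2 the change was 0.17 (adjusted p = 0.354). Ctsh was 0.19 (SE 0.07, adjusted p = 0.217) and higher in 4 of 4 mice, with 616, 575, 570 and 603 CPM, the least spread of all its groups.

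Slc34a2 (-0.16, adjusted p = 0.374) and Abca3 (-0.16, adjusted p = 0.343) were each lower with OGN in 4 of 4 mice, and neither passed the test. Lrrk2 had -0.12 (adjusted p = 0.699). Napsa was the same with and without OGN, with a log2 change of 0.00 and a 95% interval from -0.16 to 0.17. So the 6 genes did not move together with OGN, as 3 had positive and 3 negative values around a median of -0.06. Of the other AT2 signature genes, 2 of 5 were higher, Sftpa1 (0.42) and Sftpd (0.45), and 1 was lower, Hopx (-0.64), which AT1 cells also express. Of 18 AT2 genes beyond the signature, 5 were higher, led by the secreted proteins Chil1 (2.17) and Lcn2 (3.63), and 1 was lower, Lgi3 (-0.81). None of the 25 lysosomal genes and none of the 22 trafficking genes was called by edgeR. Airway markers were lower in the same libraries, 5 of 7 called, with summed levels of 1853 to 3393 CPM against 3221 to 4914 CPM with vehicle, and the part of such a shift in the 6 genes was not tested.

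With EVs, 1 of 6 genes was called in Epcam+ cells, where 0.888% of all genes were called and 0.350% were lower. Slc34a2 had 868, 725, 706 and 762 CPM with EVs against 1037, 846, 869 and 989 CPM with vehicle. It was lower in 4 of 4 mice, with log2 differences from -0.38 to -0.22, although the highest EV library lay among the vehicle libraries. The fitted change was -0.31 (SE 0.07, adjusted p = 0.0473). The direction held in every alternative, but the adjusted p lay between 0.0557 and 0.370 when any 1 mouse was left out and was 0.283 without the mouse term. Abca3 followed Slc34a2, with 419, 387, 407 and 414 CPM against 535, 457, 449 and 467 CPM. All 4 EV values of Abca3 lay under all 4 vehicle values, and the change of -0.26 (SE 0.07) had an adjusted p of 0.125 in edgeR and 0.0228 in DESeq2. The other 4 genes had values between -0.09 and -0.01. The summed fibroblast markers in the same Epcam+ libraries were 3180 to 3770 CPM with EVs against 2239 to 3114 CPM with vehicle, with 4 of 9 markers called higher. Airway markers were lower, 5 of 7 called, with sums of 2054 to 3259 CPM against 3221 to 4914 CPM. The part of either in the change of Slc34a2 was not tested.

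With SFs, 0 of 6 genes were called by edgeR or DESeq2 (0.230% of all genes by edgeR). An unadjusted p under 0.05 was reached by 2 of 6, and by 913 of all 11716 genes. All 6 values were positive, with a median of 0.11. Lamp3 had 438, 315, 316 and 412 CPM and a change of 0.39 (SE 0.11, adjusted p = 0.275), higher in 4 of 4 mice, which was the same size as with OGN. With only the libraries compared, edgeR called Lamp3 at 0.39 (SE 0.07, adjusted p = 0.0154), in a fit where 42 of all genes were called. Lrrk2 had 158, 128, 141 and 215 CPM and a change of 0.34 (SE 0.11, adjusted p = 0.348). The library of mouse 4 was the highest of all 16 Epcam+ libraries for Lrrk2, and also for Slc34a2 (1266 CPM) and Abca3 (581 CPM).

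OGN was also set against the other treatments. Against SFs, 2 of 6 genes were lower in Epcam+ cells with OGN, where 1.91% of all genes were called and 1.09% were lower. Lrrk2 had 146, 109, 98.8 and 110 CPM with OGN, lower than with SFs in 4 of 4 mice, and a change of -0.47 (SE 0.11, adjusted p = 0.0225). Slc34a2 had 888, 827, 794 and 845 CPM with OGN, each below every SF library, and a change of -0.30 (SE 0.08, adjusted p = 0.0391). The call of Slc34a2 was lost when any 1 mouse was left out (-0.35 to -0.22) and that of Lrrk2 without mouse 3 (-0.45, adjusted p = 0.157) or mouse 4 (-0.30, adjusted p = 0.196). Neither held with the length trend removed, where Lrrk2 had -0.31 (adjusted p = 0.0968) and Slc34a2 -0.23 (adjusted p = 0.131). Fibroblast markers were lower in the same comparison, 5 of 9 called lower and 1 higher (median -0.42), with sums of 2070 to 2602 CPM with OGN against 2606 to 3542 CPM with SFs, and their part in the values of Lrrk2 and Slc34a2 was not tested. Against EVs, 0 of 6 genes were called by edgeR (2.22% of all genes) and 2 by DESeq2 (413 of all genes). An unadjusted p under 0.05 was reached by 3 of 6, and by 1542 of all 11716 genes. Lamp3 (0.40, adjusted p = 0.0543) and Ctsh (0.26, adjusted p = 0.0691) came nearest, and every OGN library of Ctsh lay above every EV library. Lamp3 differed by 0.82 in mouse 2 and by 0.15 to 0.30 in the others, and without mouse 2 its value was 0.24 (adjusted p = 0.155). The comparisons of treatments share libraries and are not independent of each other.

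**Figure D3:**
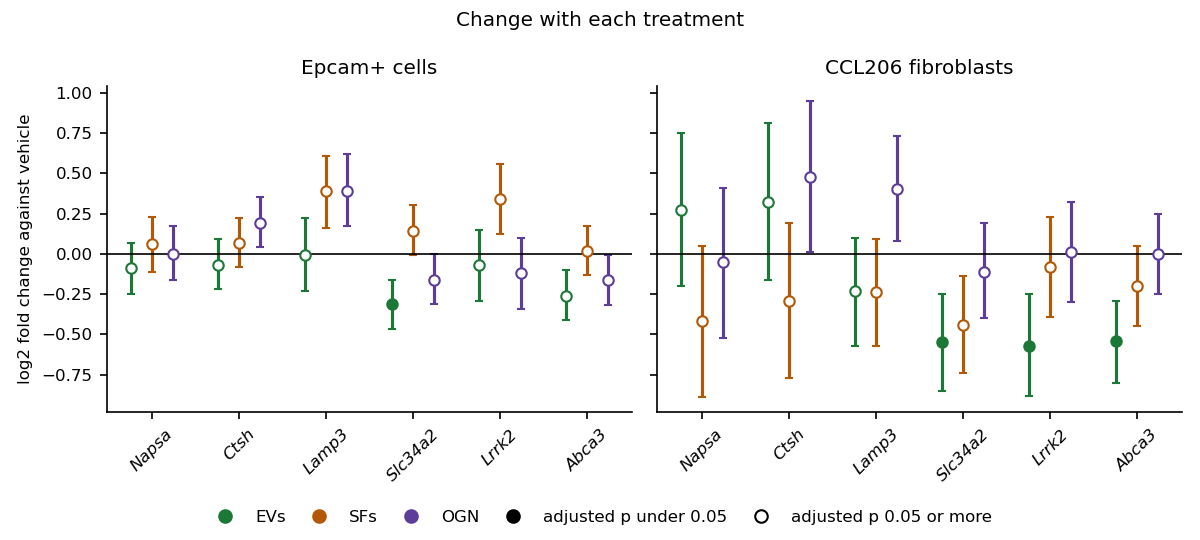
Log2 fold change of each gene against vehicle with EVs, SFs and OGN in Epcam+ cells (left) and CCL206 fibroblasts (right), with 95% intervals of the edgeR fit and filled points where the adjusted p was under 0.05. In Epcam+ cells 1 point is filled, Slc34a2 with EVs (-0.31), and in CCL206 fibroblasts 3 are, all with EVs.

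Over the 16 Epcam+ libraries, with each mouse centred on its own mean, the 6 genes fell into no single block. Slc34a2 and Abca3 were closest, with a Pearson r of log2 CPM of 0.90 over 16 libraries that share 4 mice, and Lrrk2 went with them at 0.77 and 0.66. These are the longest transcripts among the 6 genes (4176, 6503 and 8851 bases). Epcam+ libraries also differed in their trend on transcript length, with Spearman rho from -0.288 (OGN, mouse 4) to 0.330 (SFs, mouse 1). In the SF library of mouse 4 rho was 0.252. The part of this trend in the r values was not tested. Lamp3 was related to Napsa (0.60) and Ctsh (0.50), whereas Ctsh and Lrrk2 had an r of -0.28 and Napsa and Ctsh 0.02. All 4 EV libraries lay below the mean of their mouse for both Slc34a2 (-0.31 to -0.15) and Abca3 (-0.20 to -0.10), and the SF library of mouse 4 lay highest for both (0.42 and 0.29).

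**Figure D4:**
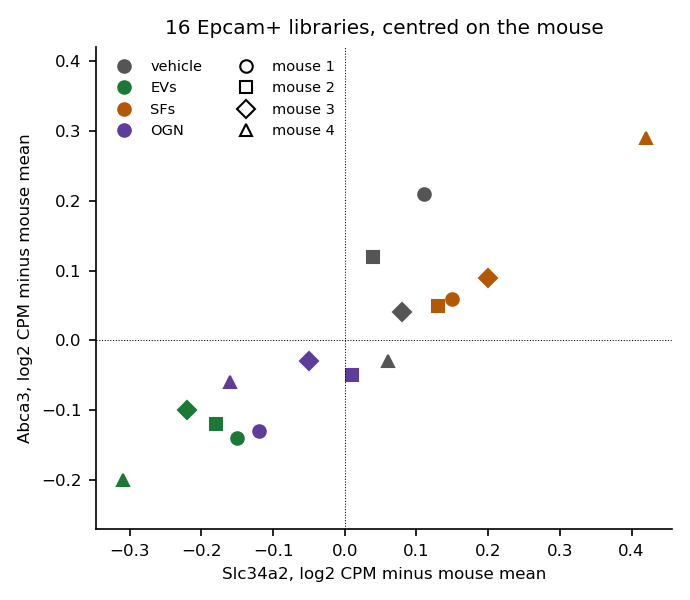
Slc34a2 against Abca3 in the 16 Epcam+ libraries, as log2 CPM minus the mean of the mouse, coloured by treatment with 1 symbol per mouse. The 4 EV libraries lie at the lower left, and the SF library of mouse 4 lies farthest to the upper right at 0.42 and 0.29.

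Among all 11716 genes, the 3 with the highest r to each member were ranked, of which those reported here are given as a description, since the highest of so many values is high by selection. For Slc34a2 they were Scd1, the fatty acid desaturase, Abca3 and Rbpjl, each at 0.90, and for Abca3 they were Slc34a2 (0.90), Tanc2 (0.90) and Rbpjl (0.89). Lamp3 had Cxcl15 (0.88), a lung chemokine, and Selenop (0.85). Ctsh had Ifitm3 (0.90), Bbln (0.88) and Syt7 (0.85). Lrrk2 had Smg1 (0.89), Marf1 (0.89) and Secisbp2l (0.88), and Napsa had Arcn1 (0.86), Atp13a3 (0.83) and Tmem30a (0.82). With Spearman's rho in place of r, 8 of the 18 genes ranked were found again, and without centring on the mouse 5 were. The pair of Slc34a2 and Abca3 was among those listed under all 3 measures.

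In the CCL206 fraction, 0 of 6 genes were called with OGN by edgeR or DESeq2 (4.56% of all genes by edgeR). An unadjusted p under 0.05 was reached by 2 of 6, and by 1831 of all 11689 genes. Ctsh had 157, 97.3, 179 and 90.4 CPM with OGN against 143, 89.9, 92.8 and 57.9 CPM with vehicle, higher in 4 of 4 mice, and a change of 0.48 (SE 0.22, adjusted p = 0.311). Lamp3 had 155, 104, 152 and 86.9 CPM and a change of 0.40 (SE 0.15, adjusted p = 0.191). Both were called when the EV libraries were left out of the fit, at unchanged size (adjusted p = 0.00505 for Ctsh and 0.0137 for Lamp3). Epithelial markers were higher in the same libraries, 8 of 8 with positive values (median 0.50) and 1 called, with sums of 634, 430, 780 and 404 CPM against 640, 385, 400 and 251 CPM. Their part in the values of Ctsh and Lamp3 was not tested. Napsa (-0.05), Slc34a2 (-0.11), Lrrk2 (0.01) and Abca3 (0.00) stayed near 0.

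With SFs, 0 of 6 genes were called in CCL206 fibroblasts by edgeR or DESeq2 (0.0599% of all genes by edgeR). An unadjusted p under 0.05 was reached by 1 of 6, and by 621 of all 11689 genes. All 6 values were negative, with a median of -0.26. Slc34a2 had 233, 165, 192 and 119 CPM, lower than with vehicle in 4 of 4 mice, and a change of -0.44 (SE 0.14, adjusted p = 0.650). The calls depended on the libraries in the fit. With only the libraries compared, edgeR called Slc34a2 (-0.44, adjusted p = 0.000496), Napsa (-0.42, adjusted p = 0.0119) and Ctsh (-0.29, adjusted p = 0.0179) lower. In that fit 302 of all genes were called, against 7 in the fit over the whole fraction. Epithelial markers were also lower, 8 of 8 with negative values (median -0.29), and their part was not tested.

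With EVs, 3 of 6 genes were lower in CCL206 fibroblasts, where 36.0% of all genes were called and 16.2% were lower. Abca3 had 192, 132, 155 and 92.0 CPM against 240, 192, 204 and 183 CPM with vehicle, and a change of -0.54 (SE 0.12, adjusted p = 0.00619). Slc34a2 had 233, 147, 158 and 118 CPM and a change of -0.55 (SE 0.14, adjusted p = 0.0108). Lrrk2 had 114, 86.0, 113 and 59.9 CPM, each below every vehicle library, and a change of -0.57 (SE 0.15, adjusted p = 0.0117). All 3 were lower in 4 of 4 mice, and they are the 3 longest transcripts of the 6, with 4176 bases for Slc34a2, 6503 for Abca3 and 8851 for Lrrk2. The short transcripts had positive values, 0.27 for Napsa (1569 bases, adjusted p = 0.341) and 0.32 for Ctsh (1643 bases, adjusted p = 0.271), and Lamp3, of 3356 bases, had -0.23 (adjusted p = 0.252). Without the EV libraries of mice 2 and 4 all 3 were negative and not called, at -0.24 for Napsa (adjusted p = 0.470), -0.33 for Ctsh (adjusted p = 0.196) and -0.46 for Lamp3 (adjusted p = 0.0766).

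In the EV-treated CCL206 libraries the medians of genes of like length also fell with transcript length. The 6 genes did not follow that order in every library. In mouse 3 Slc34a2 was lowest (-0.55), with Abca3 at -0.39 and Lrrk2, the longest, at -0.27. In the EV library of mouse 2, Lrrk2 lay at -0.66 relative to the vehicle mean on the log2 scale, and the median of 429 genes whose transcripts were within 10% of its length was -0.74. In mouse 4 Abca3 lay at -1.14, against a median of -0.69 over 939 such genes, and Napsa at 0.54 against 0.77. Slc34a2 lay farther below its like-length genes, at -0.97 against -0.22 in mouse 4, -0.66 against -0.14 in mouse 2 and -0.55 against -0.03 in mouse 3, but at 0.02 against -0.01 in mouse 1. Lamp3 lay at -0.31, -0.49 and -0.41 in mice 2, 3 and 4, against -0.02, 0.02 and 0.00. In mouse 1 Lamp3 lay at 0.32 against 0.01. With the length trend of each library removed, 0 of 6 genes were called, with values of -0.37 for Slc34a2 (adjusted p = 0.0624), -0.13 for Abca3 (adjusted p = 0.199) and 0.02 for Lrrk2 (adjusted p = 0.872). Without mouse 2 altogether 0 were called (adjusted p between 0.0708 and 0.0894), and without mouse 4 Lrrk2 was lost (-0.40, adjusted p = 0.0907). Without the EV libraries of mice 2 and 4 alone, 2 were called, Slc34a2 (-0.65, adjusted p = 0.0193) and Abca3 (-0.33, adjusted p = 0.0315), and Lrrk2 had -0.28 (adjusted p = 0.168). Summed epithelial markers in the 4 EV libraries were 481, 651, 445 and 713 CPM, higher than with vehicle in 3 of 4 mice. The sums were largest in mice 2 and 4, whose libraries had the steepest length trend, and the part of that trend was not tested. The markers did not rise alike. As a mean share of the Epcam+ level, Cdh1 (9.33% with EVs, 10.3% with vehicle) and Cldn18 (28.6% and 30.9%) were not higher. The other epithelial markers were, such as Krt19 (8.26% and 3.81%).

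**Figure D5:**
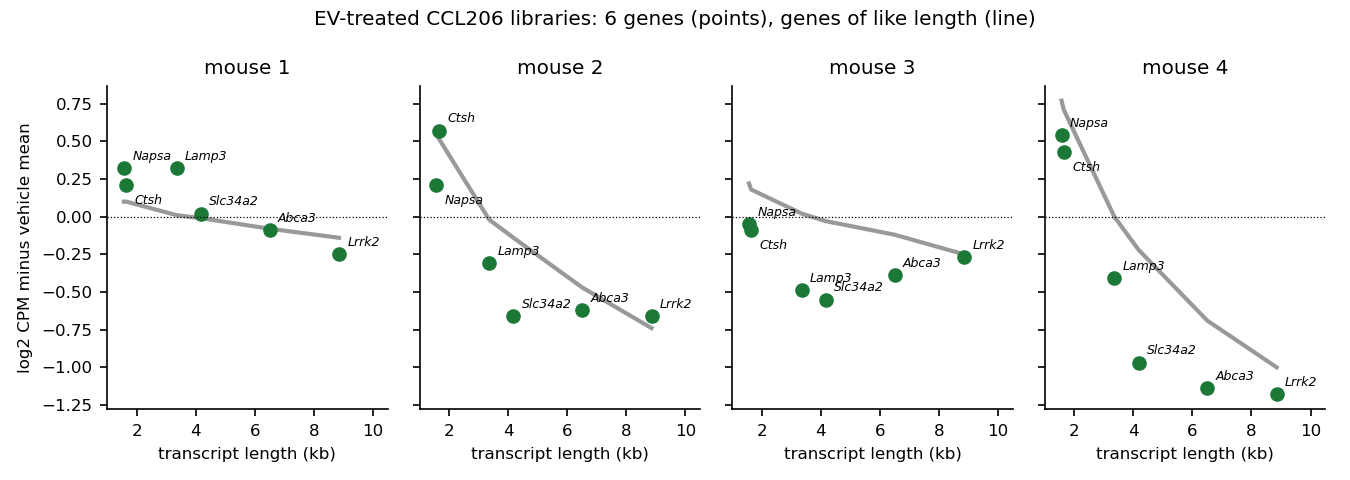
Log2 CPM of the 6 genes in each EV-treated CCL206 library minus the mean of the vehicle CCL206 libraries, against transcript length in kb, with 1 panel per mouse and a grey line through the medians of genes of like length. In mouse 4 the values run from 0.54 for Napsa to -1.18 for Lrrk2, and the line falls with length.

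Whether a treatment acted differently in the 2 fractions was tested as an interaction, given as the change in CCL206 minus that in Epcam+ cells. For EVs, 0 of 6 genes were called by edgeR and 1 by DESeq2 (23.8% of all genes by edgeR). An unadjusted p under 0.05 was reached by 2 of 6, and by 4616 of all 11805 genes. Lrrk2 came nearest to a call by edgeR, at -0.52 (SE 0.20, adjusted p = 0.0527). Without the EV-treated CCL206 libraries of mice 2 and 4 Lrrk2 had -0.22 (adjusted p = 0.574), and the other 5 genes had values between -0.46 and -0.08, none of them called. For SFs, 0 of 6 were called by either tool and 0.00% of all genes by edgeR. An unadjusted p under 0.05 was reached by 3 of 6, and by 590 of all 11805 genes. Lamp3 (-0.64, adjusted p = 0.732) and Slc34a2 (-0.59, adjusted p = 0.705) had the largest values. With only the libraries compared, edgeR called both, Lamp3 at -0.63 and Slc34a2 at -0.57 (adjusted p = 0.0173 for each). In that fit 32 of all genes were called. For OGN, 0 of 6 were called by either tool (0.551% of all genes by edgeR). An unadjusted p under 0.05 was reached by 0 of 6, and by 813 of all 11805 genes. Lamp3 had changes against vehicle of 0.39 in Epcam+ and 0.40 in CCL206 cells. Its interaction was 0.00, with a 95% interval from -0.40 to 0.40.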

How the data were processed

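RNA of the Epcam+ and CCL206 fractions of treated organoid cultures was sequenced by the authors, whose deposited table holds raw counts per gene, not normalized, for 32 libraries. Per the labels, reads were trimmed with Trimmomatic (0.30) and aligned to GRCm39, while the paper's methods name GRCm38. The aligner, counter and annotation are not given in the sources used here. Positions and promoters are from RefSeq (GRCm38.p6) and played no part in the counts.

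Counts were filtered with filterByExpr, scaled by TMM and tested with edgeR (4.0.16, R 4.3.3), by quasi-likelihood, over the 16 libraries of a fraction or all 32, with mouse in the model. Equal mouse numbers in the labels mark cultures of the same animal. Deviations from the group means had a mean correlation of 0.0688 between Epcam+ and CCL206 libraries of the same mouse and -0.0226 for different mice. Between treated and vehicle libraries of 1 fraction, the mean correlation was 0.0873 to 0.224 for the same mouse. For different mice it was -0.0699 to -0.0297. Adjusted p values are by Benjamini-Hochberg over all genes tested, and a gene was called under 0.05. Each SE was derived from the fold change and its F statistic. CPM were scaled by TMM over all libraries, and r used log2 CPM with a prior count of 2. Lengths are of Ensembl canonical transcripts (GENCODE vM39), matched by symbol for 11686 of 11818 genes. Alternatives were DESeq2 (1.42.0), RLE scaling, other filters, other library sets, each mouse left out, no mouse term and removal of each library's trend on transcript length. All 6 genes were named in every comparison, and of other lists at most 2 called genes per direction with the smallest p in a treatment comparison. Cathepsins, LAMP, ABCA and transporter genes of the population comparison were named by family after their values were seen, as were Rab38 and Rab29. The members and lists were chosen with earlier results of these data known. The script was tested on simulated data. No 2 replicate libraries agreed within counting error (the smallest ratio of chi-square to its degrees of freedom was 2.98), and counting intervals do not cover differences between cultures. Some genes of these lists are not reported here.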

Additional observations from a re-analysis of the deposited data

Results flagged for a closer look

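Of 48 groups of 4 values (6 genes in 8 groups), 1 held a library far from the others by Dixon's ratio, where chance alone gives about 1 in 20. Abca3 in the SF-treated CCL206 library of mouse 4 had 163 CPM, against 181 to 184 CPM in the other 3 libraries (ratio 0.855, critical value 0.829). The other 5 genes had no such value in that group. In edgeR's test over all libraries, no member had a called difference between the fractions in its response to a treatment.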

How the results depend on the processing

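Of 1068 values of the 6 genes under 12 other settings and 1 more (without the EV-treated CCL206 libraries of mice 2 and 4) chosen after seeing the data, 1000 kept their side of the threshold, of which 37 changed sign with neither value called, 35 lost and 31 gained a call, and 2 called values turned direction. Those 2 were Lrrk2 with the length trend removed, at 0.02 for EVs in CCL206 fibroblasts and -0.23 for Epcam+ against CCL206 with EVs. The difference between fractions of the other 5 genes kept its call in 240 of 240 values (log2 0.96 to 3.06), while Lrrk2 changed its call or direction in 13 of 48, so that 5 to 6 members were called with EVs, SFs or OGN when a mouse was left out. Within fractions and in the interactions, the number of members called moved as follows, and the cause was not tested. Without the replicate block, which pairs the cultures of a mouse, it went from 1 to 0 for EVs and from 2 to 0 for OGN against SFs in Epcam+ cells. In CCL206 fibroblasts with EVs it went from 3 to 2. With DESeq2 it was 1 for OGN, 2 for EVs, 2 for OGN against EVs and 1 for the interaction of EVs, which was also 1 with RLE scaling and with at least 10 counts. With only the libraries compared it was 0 for EVs, 1 for SFs and 0 for OGN against SFs in Epcam+ cells. In CCL206 fibroblasts it was 2 for OGN, 0 for EVs and 3 for SFs, and it was 2 for the interaction of SFs. Without the EV libraries it was 1 for OGN against SFs and 2 for OGN in CCL206 fibroblasts. With the length trend removed it was 1 for OGN, 2 for OGN against EVs, 0 for OGN against SFs and 0 for EVs in CCL206 fibroblasts. With each mouse left out it was 0 to 1 for OGN, 0 for EVs, 0 to 1 for OGN against EVs, 0 to 1 for OGN against SFs, 0 to 3 for EVs in CCL206 fibroblasts and 0 to 1 for the interaction of EVs. Genes most like each member were shared in 8 (Spearman) and 5 (not centred) of 18. Over all genes, calls for EVs in CCL206 fibroblasts fell from 4207 to 19 without mouse 2, to 645 without the EV libraries of mice 2 and 4 and to 387 with only the libraries compared, and those for OGN rose from 533 to 1370 with only the libraries compared and 1770 without the EV libraries. With 4 mice, simulated 1.5-fold changes were recovered for 70.2% of genes in Epcam+ cells with OGN and 24.6% in the interaction with OGN, so small changes may go uncalled.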

Other observations

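In the CCL206 fraction, 4 of 25 genes of the general lysosome were called higher with OGN by edgeR and 0 lower, where 4.56% of all genes were called, with Ctsk, a collagen-degrading cathepsin, at 2.13 (adjusted p = 0.000178) and Ctsc, which activates serine proteases of granules, at 0.62 (adjusted p = 0.00254), both on the log2 scale. Of 22 trafficking genes 1 was called, Rab32, a GTPase of lysosome-related organelles, at 1.17 (adjusted p = 8.70e-05). Of 6 other ABCA transporters 1 was called, Abca1 at 1.06 (adjusted p = 0.00413).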
